A study of Anas platyrhynchos with 6 samples.

Results

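The miR-183, miR-182 and miR-96 cluster was followed in small RNA libraries of the duck duodenum. Its members were all miRNA names that, without the species prefix, began with miR-183, miR-182 or miR-96, of any arm or copy. This gave 14 of the 1568 names in the deposited tables: 3 for miR-183, 5 for miR-182 and 6 for miR-96. The libraries came from Nonghu No. 2 ducks that were 90 days old when they were selected. Birds of the traditional breeding (TB) group stayed on the ground and birds of the cage rearing (CR) group were moved to cages for a trial of 10 days, after a pre-feeding period on the floor that both groups shared. Each group had 3 libraries, which the labels describe as intestinal epithelial cells of the duodenum, whereas the methods describe a piece of the whole duodenum. How the sequenced samples related to the 8 ducks of each replicate in the trial is not stated in the sources used here, so p-values measure the spread between these samples.

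In vertebrates the 3 miRNAs are processed from a shared primary transcript. They are best known from sensory cells, such as photoreceptors of the retina and hair cells of the inner ear, and mutations in the seed of miR-96 cause hearing loss in mice and humans. The seed is the stretch near the 5′ end with which a miRNA recognises its targets. The seeds of miR-183, miR-182 and miR-96 are alike but not identical, and in human cells the transcription factor FOXO1 is a known target of the cluster. The deposited tables give names without sequences, so the members are described by name and reads.

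The values are in RPM, the reads of a name per 1000000 reads over all names of a library, with no correction for length. The size of this step gave back the whole reads, which summed to between 1500905 in CR replicate 2 and 11395209 in CR replicate 1. One read amounted to 0.666 RPM in the former library and to 0.0878 RPM in the latter. Intervals and detection limits below cover counting error only. Across the 662 tested names, which reached 10 reads in 3 or more libraries, TB replicate 1 and CR replicate 2 stood apart from the other 4 libraries. They had a correlation of log2(RPM + 1) of 0.968 with each other across names, but of 0.737 to 0.818 with the other 4, which had 0.982 to 0.992 among themselves. Results are therefore also given without these libraries. The summed epithelial miRNAs (8 of 8 listed, including miR-215 and miR-194) ranged from 38722 to 186730 RPM and the smooth muscle miRNAs miR-143 and miR-145 from 91168 to 198015 RPM, so markers of both tissues were abundant. In such bulk samples, fewer cells of a type and less RNA per cell cannot be told apart.

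All members were rare in the duodenum. The 14 names held 8 distinct sets of reads, of which 5 had more than 1 read over the 6 libraries. The miR-183 names cgr-miR-183, mmu-miR-183-5p and ola-miR-183-5p had identical reads, 64 in all, with a mean of 2.61 RPM. The name rno-miR-3553, which is no member by its name, had the same reads in all 6 libraries. For miR-182, hsa-miR-182-5p and dre-miR-182-5p shared 70 reads, with a mean of 2.33 RPM, and chi-miR-182 differed from them by 1 read in CR replicate 1. The name mmu-miR-182-5p had a set of its own, with 32 reads. For miR-96, hsa-miR-96-5p, gga-miR-96-5p, chi-miR-96 and mml-miR-96 shared 16 reads, with a mean of 0.681 RPM. Of the remaining names, isc-miR-96 had 1 read in CR replicate 2, pal-miR-182-5p had 1 read in CR replicate 1, and dre-miR-96-3p, the only 3p arm listed, had 0 reads in all 6 libraries. At 0 reads the level may still be as high as 0.263 RPM in the deepest library, CR replicate 1, and 1.999 RPM in the shallowest, CR replicate 2. The mean of miR-183 lay above that of 56.3% of the 1470 detected names, and that of miR-96 above that of 42.2%.

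TB replicates 1 to 3 held 2.10, 0.214 and 0.777 RPM of miR-183, from 12, 2 and 7 reads. CR replicates 1 to 3 held 1.58, 9.99 and 1.0002 RPM, from 18, 15 and 10 reads. CR replicate 2 was the highest library, at 4.75 times TB replicate 1, which came next, and TB replicate 2 was the lowest. The 95% Wilson interval in CR replicate 2, from 6.06 to 16.5 RPM, lay above those of the other 5 libraries, of which the highest ended at 3.67 RPM. The level averaged 1.03 ± 0.969 RPM over the TB libraries and 4.19 ± 5.03 RPM over the CR libraries (SD, n = 3 each), with overlapping values (p = 0.4 in a two-sided exact permutation test, whose lowest possible p is 0.1 with this number of libraries). On the log2(RPM + 1) scale, which understates changes of rare miRNAs, the difference was 1.03 (standard error 0.79, 95% interval -0.88 to 2.93, adjusted p = 0.999 from limma). The difference was thus within the spread between replicates. This log2 difference, from RPM without further scaling, depended on CR replicate 2 and, in the other direction, on TB replicate 1. It was 0.27 without CR replicate 2, 1.39 without TB replicate 1 and 0.63 without both. With a pseudocount of 10 it was 0.31.

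Only miR-183 had enough reads to be tested across the table, and 0 of its 3 names had an adjusted p under 0.05. The background was the same, at 0% of the 662 tested names (limma), with 0 names at an unadjusted p under 0.05. In edgeR and in DESeq2 on the recovered reads, 0 names had an adjusted p under 0.05 and 5 had an unadjusted p under 0.05. The median log2 fold change over all tested names was 0.05, and -0.11 after TMM scaling. That of miR-183 was 0.86 after TMM scaling. In plain RPM the groups of miR-183 overlapped, and groups without overlap were found for 2.27% of the tested names.

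**Figure D1:**
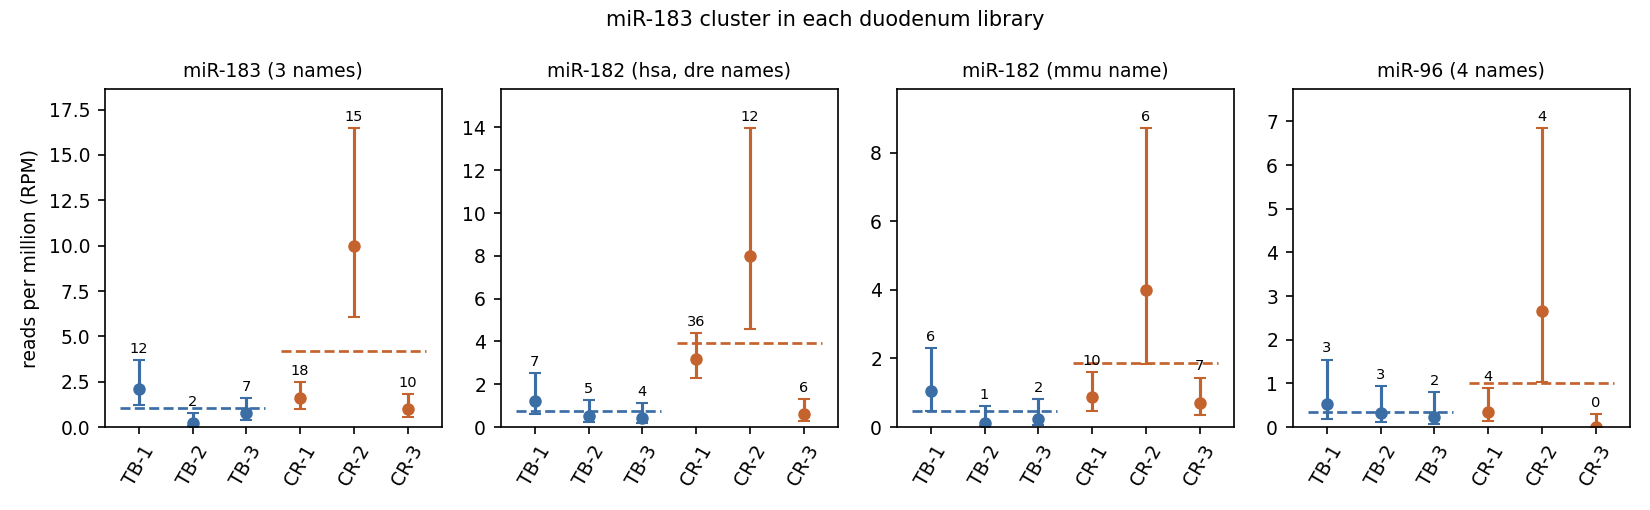
Level of miR-183, of 2 sets of miR-182 names and of miR-96 in each library. The y axis gives RPM, on a separate linear scale in each panel; points are libraries, blue for TB and orange for CR, bars are 95% Wilson intervals of the counting error (for 0 reads, up to the level of 3 reads), numbers are reads and dashed lines are group means. CR replicate 2 was the highest library in every panel, and CR replicate 1 was above all TB libraries only for hsa-miR-182-5p.

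For miR-182, the more abundant set of names (hsa-miR-182-5p and dre-miR-182-5p) was counted with 7, 5 and 4 reads in TB replicates 1 to 3, or 1.23, 0.535 and 0.444 RPM. CR replicates 1 to 3 held 36, 12 and 6 reads, or 3.16, 7.995 and 0.600 RPM. Here both CR replicates 1 and 2 were above every TB library, whereas CR replicate 3 was below TB replicate 1. The interval in CR replicate 1, from 2.28 to 4.37 RPM, overlapped that of TB replicate 1, from 0.594 to 2.53 RPM, and lay above those of TB replicates 2 and 3. The TB libraries averaged 0.735 ± 0.428 RPM and the CR libraries 3.92 ± 3.76 RPM (SD, n = 3 each; p = 0.2, two-sided exact permutation test). The log2(RPM + 1) values differed by 1.20 (95% interval -0.82 to 3.22 in limma without a filter on low values). Leaving out CR replicate 2 gave 0.60, and leaving out CR replicate 3 gave 1.85.

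The name mmu-miR-182-5p was counted with 6, 1 and 2 reads in TB replicates 1 to 3, or 1.05, 0.107 and 0.222 RPM. CR replicates 1 to 3 held 10, 6 and 7 reads, or 0.878, 3.998 and 0.700 RPM. As for miR-183, CR replicate 2 was the highest library and TB replicate 1 the next. In CR replicate 3 this name had 7 reads and hsa-miR-182-5p had 6, so its reads were not simply a part of those of the more abundant name. In CR replicate 1 it had 10 against 36. Averages of 0.46 ± 0.515 RPM for TB and 1.86 ± 1.85 RPM for CR (SD, n = 3 each) came from overlapping values (p = 0.3, two-sided exact permutation test).

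The miRNA miR-96 was near the limit of detection. TB replicates 1 to 3 held 3, 3 and 2 reads, or 0.526, 0.321 and 0.222 RPM. CR replicates 1 to 3 held 4, 4 and 0 reads, or 0.351, 2.67 and 0 RPM. CR replicate 3 was the only library with no read of miR-96, and 0 reads there allow up to 0.300 RPM, which includes the level of TB replicate 3 but not those of TB replicates 1 and 2. At 2 or 3 reads in each TB library, the counting intervals of all 3 nevertheless reached below this limit. The TB libraries averaged 0.356 ± 0.155 RPM and the CR libraries 1.01 ± 1.45 RPM (SD, n = 3 each; p = 0.8, two-sided exact permutation test). The log2(RPM + 1) values differed by 0.34, and by -0.22 without CR replicate 2, so the direction depended on that library.

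The order of the mean levels in RPM was miR-183, miR-182 (hsa-miR-182-5p), mmu-miR-182-5p and miR-96. The first 2 did not differ beyond their spread, since miR-183 had more reads than hsa-miR-182-5p in 4 of the 6 libraries and fewer in TB replicate 2 and CR replicate 1. The last 2 were not ordered alike in all libraries either, as mmu-miR-182-5p had 1 read against 3 of miR-96 in TB replicate 2 and 2 against 2 in TB replicate 3. In contrast, miR-96 had fewer reads than hsa-miR-182-5p in all 6 libraries. A balance between members within a library does not depend on how the library is scaled. Of the reads of miR-182 and miR-183 together, miR-182 made up 36.8%, 71.4% and 36.4% in TB replicates 1 to 3. In CR replicates 1 to 3 it made up 66.7%, 44.4% and 37.5%. CR replicate 1 was the only library whose exact 95% binomial interval, 52.5% to 78.9%, did not include 50%. In that library miR-182 thus had more reads than miR-183 beyond the counting error of a single interval, with no adjustment for the 6 libraries examined. The log2 ratio of miR-182 to miR-183 was -0.09 ± 1.22 (SD, n = 3) in TB and -0.02 ± 0.91 (SD, n = 3) in CR. The groups differed by 0.07 (two-sided exact permutation test, p = 0.8, the only ratio computed, so that the adjusted p is the same), far less than the spread between replicates.

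**Figure D2:**
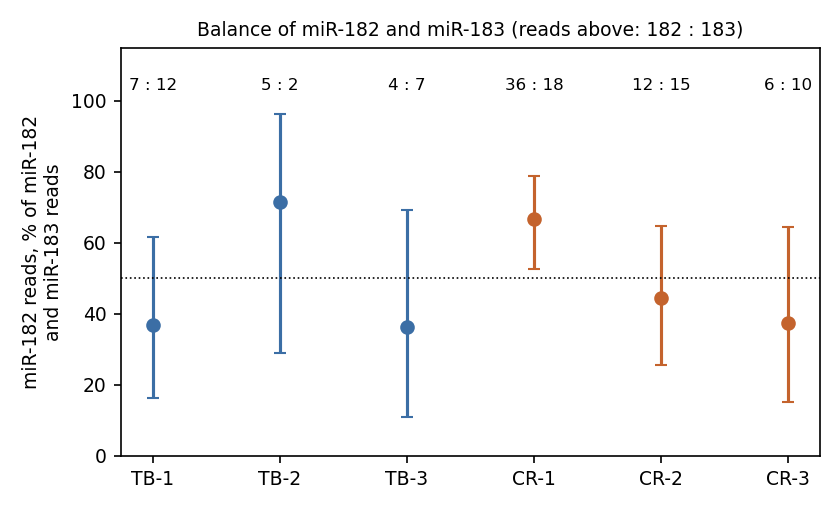
Share of miR-182 in the reads of miR-182 and miR-183 together, in percent, for each library. Points are blue for TB and orange for CR, bars are exact 95% binomial intervals and the dotted line marks 50%; only the interval of CR replicate 1, with 36 reads of miR-182 and 18 of miR-183, lies off that line.

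Summed over the most abundant name of each miRNA, the cluster came to 3.85, 1.07 and 1.44 RPM in TB replicates 1 to 3. In CR replicates 1 to 3 it came to 5.09, 20.7 and 1.60 RPM. In plain RPM, CR replicate 3 lay within the range of the TB libraries. The sum was not examined after TMM scaling, which lowers TB replicate 1 and CR replicate 2 and raises the others. The sum averaged 2.12 ± 1.51 RPM for TB and 9.11 ± 10.1 RPM for CR (SD, n = 3 each; p = 0.2, two-sided exact permutation test).

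CR replicate 2 was the highest of the 6 libraries for all 5 sets of reads with more than 1 read. This was a common pattern, found in 47.2% of the 1470 detected names and in 58.1% of the 248 names with 16 to 70 reads, the range of miR-96, miR-183 and hsa-miR-182-5p. Both TB replicate 1 and CR replicate 2 lay above the other 4 libraries for miR-183, mmu-miR-182-5p and miR-96. This was so in 43.3% of all detected names and in 53.6% of those with 16 to 70 reads. The miR-182 set of hsa-miR-182-5p did not follow this split, as CR replicate 1 exceeded TB replicate 1. In plain RPM, none of the 5 sets had groups that did not overlap, against a background of 2.11% of the detected names. Overlap was not examined after TMM scaling, so these statements hold for plain RPM only. TMM scaling divides by 2.966 in CR replicate 2, by 1.698 in TB replicate 1 and by 0.531 to 0.772 in the others. It can thus change the order of the libraries.

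When TB replicate 1 and CR replicate 2 were left out, both remaining CR libraries were above both TB libraries for miR-183, hsa-miR-182-5p, chi-miR-182 and mmu-miR-182-5p, but not for miR-96. Such an order was found in 8.44% of all detected names and in 14.1% of those with 16 to 70 reads. In these 4 libraries the mean of miR-183 was 0.495 RPM for TB and 1.29 RPM for CR, and that of hsa-miR-182-5p was 0.49 RPM for TB and 1.88 RPM for CR. The latter mean came mostly from CR replicate 1, at 3.16 RPM. For hsa-miR-182-5p, CR replicate 3 had 6 reads (0.600 RPM, interval 0.275 to 1.31 RPM). TB replicate 2 had 5 reads (0.535 RPM, interval 0.229 to 1.25 RPM), so their order rested on few reads. With 2 against 2 libraries an exact permutation test cannot go below p = 0.333. The counting intervals of some of these libraries overlapped, as for miR-183 in TB replicate 3 (0.376 to 1.60 RPM) and CR replicate 3 (0.543 to 1.84 RPM), and others did not, as for miR-183 in TB replicate 2 (0.0587 to 0.781 RPM) and CR replicate 1 (0.999 to 2.50 RPM). These names are not separate observations, since miR-182 names can share reads and the miRNAs share a transcript.

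**Figure D3:**
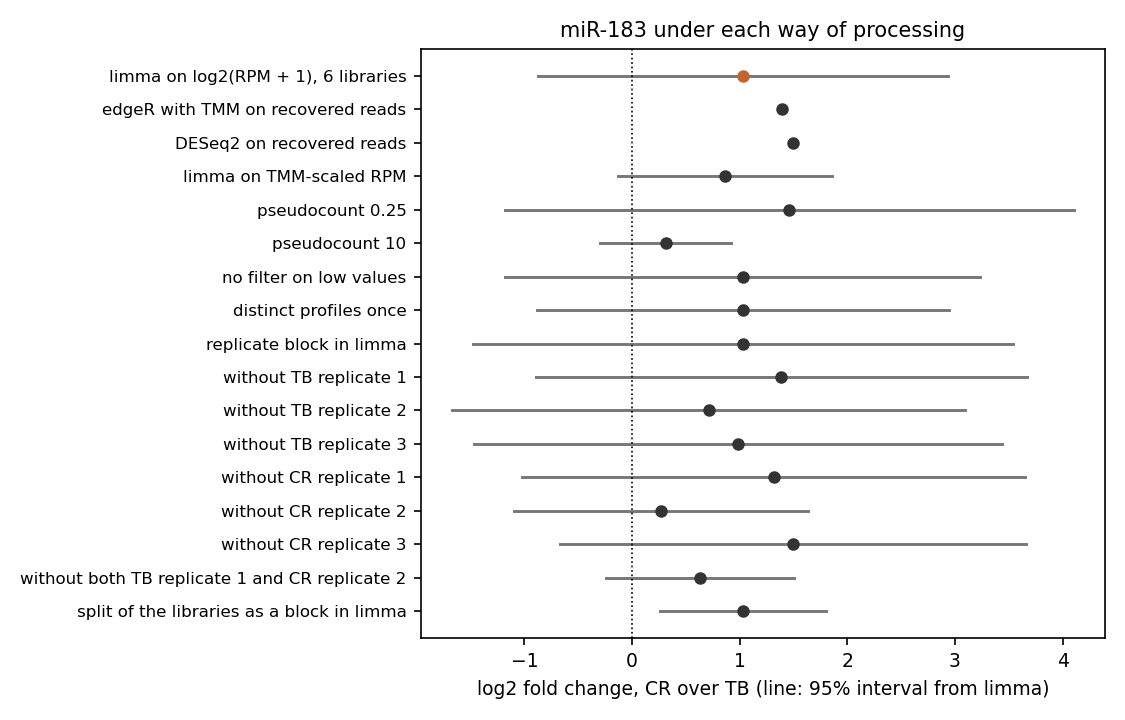
Log2 fold change of miR-183 between CR and TB (x axis) under each way of processing the data (y axis). The orange point is limma on log2(RPM + 1) of all 6 libraries, black points are the alternatives, and lines are 95% intervals from limma, not drawn for edgeR and DESeq2. All points lie above 0, from 0.27 to 1.50, and the interval excludes 0 only where the split of the libraries entered as a block, where the adjusted p was 0.422. That split was found in these same data.

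The 5 distinct profiles most like that of miR-183, among 446 other profiles of tested names, belonged to nve-miR-100-5p, cfa-miR-15b, bta-let-7e, ggo-miR-148b and mmu-miR-3535. Their Pearson correlation with miR-183 in log2(RPM + 1) over the 6 libraries was 0.981, 0.979, 0.969, 0.963 and 0.961, and 30 profiles were above 0.9. All 5 had their highest level in CR replicate 2 and their next in TB replicate 1. For example, cfa-miR-15b reached 12.7 RPM in CR replicate 2 and 2.63 RPM in TB replicate 1, and the other libraries ranged from 0 to 0.878 RPM. Having been chosen for likeness to miR-183, which had the same order, these profiles are no separate support for it. Both libraries lay above the other 4 in 43.3% of all detected names. Within the cluster, miR-183 had a correlation of 0.908 with hsa-miR-182-5p and of 0.909 with miR-96, which came to 0.64 and 0.36 over the 5 libraries without CR replicate 2, the library of lowest depth. With mmu-miR-182-5p it was 0.989, and 0.943 without that library.

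Of the 4 listed miRNAs of sensory, neuronal and endocrine cells, 3 were far more abundant than miR-183 and 1, miR-124, was rarer. The test was passed by 0 of the 3 that had enough reads. Their median log2 fold change was 0.08, against 0.05 over all tested names. The islet and enteroendocrine miRNA miR-375 (bfl-miR-375) was at 3716 RPM in TB replicate 1 and 7310 RPM in CR replicate 2, whereas the other 4 libraries ranged from 233 to 338 RPM. The likewise endocrine miR-7 (gga-miR-7) went the other way, at 862 and 289 RPM in these libraries against 1212 to 2428 RPM elsewhere. The neuronal miR-9 (sko-miR-9-5p) ranged from 44.1 to 112 RPM, with TB replicate 1 lowest and CR replicate 1 highest, and miR-124 (mmu-miR-124-5p) had 8 reads in all. Of the sensory-organ miRNAs, miR-204 (mmu-miR-204-5p), known from the retinal pigment epithelium, had 27.0 RPM in TB replicate 1 and 52.6 RPM in CR replicate 2 against 1.20 to 3.33 RPM elsewhere. The log2 values of miR-204 differed by 0.05 between CR and TB (limma, standard error 1.44, adjusted p = 0.999). No name of miR-211 was listed, nor of miR-1271, which shares the seed of miR-96 in mammals. Thus miR-183, miR-204 and miR-375 all had TB replicate 1 and CR replicate 2 as their highest libraries, while miR-7 had them as its lowest.

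**Figure D4:**
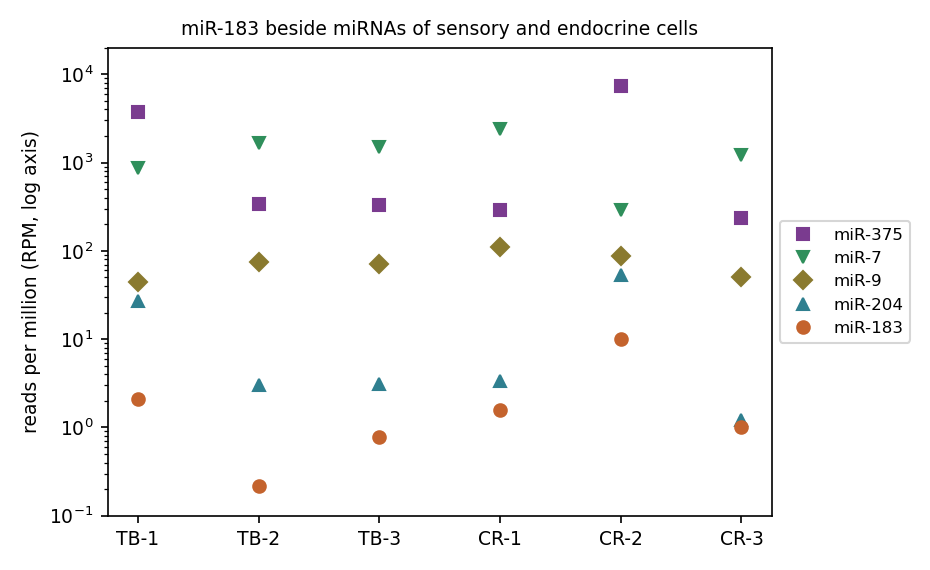
Level of miR-183 and of 4 miRNAs of sensory, neuronal or endocrine cells in each library, in RPM on a log axis. Each point is a library; miR-375, miR-204 and miR-183 were highest in TB replicate 1 and CR replicate 2, and miR-7 was lowest there.

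In CR replicate 2, the library in which the cluster was highest, some markers of other cell types were higher than in most libraries and others were lower. The hepatocyte miRNA miR-122 (oha-miR-122-5p, the only one of its list) was at 328 RPM in CR replicate 2, whereas the TB libraries ranged from 1.55 to 7.36 RPM and CR replicates 1 and 3 held 3.16 and 5.10 RPM. The pancreatic acinar miRNAs (3 of 3 listed) summed to 26.0 RPM there and 53.6 RPM in TB replicate 1, against 1.11 to 4.83 RPM elsewhere, with miR-216a at 0 in TB replicates 2 and 3. The striated muscle miRNAs (3 of 3) summed to 933 and 955 RPM in these libraries against 490.1 to 598 RPM elsewhere, with miR-206 at 0 in TB replicates 2 and 3 and CR replicate 1. This sum followed miR-133a, at 822 and 907 RPM against 64.6 to 214 RPM, whereas miR-1 was lower there, at 85.9 RPM in CR replicate 2 and 37.7 RPM in TB replicate 1 against 384 to 473 RPM elsewhere. The epithelial sum was lower in CR replicate 2 (38722 RPM) and TB replicate 1 (49794 RPM) than in the other 4 libraries, where it was at least 126932 RPM. The difference was largest in miR-215, at 12535 and 11200 RPM against 91467 to 143915 RPM. In contrast, miR-200b, miR-200c and miR-429 were higher in CR replicate 2 and TB replicate 1 than in the other 4 libraries, as for miR-200c at 2217 and 1914 RPM against 132 to 313 RPM. The smooth muscle sum was lower in both as well, at 91168 and 118822 RPM against 150969 to 198015 RPM, which reflected miR-143, while miR-145 was higher in both, at 941 and 1490.0 RPM against 559 to 867 RPM. The summed blood cell miRNAs (4 of 5 listed) were at 134 and 54.8 RPM against 268 to 368 RPM, with miR-223 at 0 in all libraries but CR replicate 3. That sum was mostly miR-142, while the erythroid miR-451, at 45.3 and 22.9 RPM, lay within the range of the other libraries, 18.5 to 50.5 RPM. The rare miR-144 (cpi-miR-144-5p) was instead lower in both, at 0.666 and 0 RPM against 1.82 to 5.10 RPM elsewhere. Its level in CR replicate 2 came from 1 read. The miRNA miR-126 of the endothelium was at 639 and 469 RPM against 736 to 1467 RPM. The part of these cell types, and of the low depth of CR replicate 2, in the levels of the cluster was not tested.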

How the data were processed

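TruSeq small RNA libraries of 6 duodenum samples, 3 TB and 3 CR, had been sequenced on an Illumina HiSeq platform. The authors deposited 1 RPM value per miRNA name and library, in a column headed TPM, whereas the methods name FPKM; aligner, genome build and read filters are not given in the sources used here. Whole reads were recovered for 100.0% of the values (tolerance 0.02 read). The tests used limma 3.58.1 (lmFit, eBayes with trend) on log2(RPM + 1), for names that reached 10 reads in 3 or more libraries, with Benjamini-Hochberg adjustment over all 662. Members with fewer reads were compared with exact permutation tests and, as an alternative, in limma without that filter. edgeR 4.0.16 and DESeq2 1.42.0 on recovered reads, other scalings and pseudocounts, a block and left-out libraries were alternatives. The study's own two-sided test was not run on 3 libraries a group. Ratios had been planned for members with at least 10 reads in every library, which 0 met, so members with at least 1 read in every library were used. Named miRNAs were all members, the 5 tested profiles most correlated with miR-183 and the most abundant name of each listed miRNA. The cluster and lists were chosen with earlier results of these data known. Scripts were tested on simulated data, in R 4.3.3 and Python 3.11.15.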

Additional observations from a re-analysis of the deposited data

How the results depend on the processing

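The log2 fold change of miR-183 was above 0 with an adjusted p above 0.05 in all 16 alternatives, from 0.27 to 1.50, both with one replicate left out. With the replicate number as a block it was 1.03 (adjusted p = 0.999 from limma). Deviations of same-numbered libraries correlated at -0.80, -0.91 and 0.91, and those of TB replicate 1 and CR replicate 2 at 0.93. These values follow the split of these libraries from the others, so they cannot show whether the numbers pair the samples. The replicate block changed no call. With the split of the libraries as a block the unadjusted p of miR-183 was 0.00892 (adjusted p = 0.422, both from limma). In that fit 32 of the 662 tested names had an unadjusted p under 0.05. That split was found in these same data and sets only TB replicate 1 and CR replicate 2 apart. Results with this block are therefore no independent support for a difference. The number of names with an adjusted p under 0.05 was 0 except for 5 with that block, all names of miR-122, and 0 to 0 with one replicate left out. The number of names without overlap was 15 among the tested names and 31 without a filter, where more names enter. The differences of the miR-182 names stayed above 0 in all 10 alternatives run for each. These were other pseudocounts, left-out libraries and no filter, without TMM, edgeR, DESeq2 or block fits. The difference of miR-96 was -0.13 without both TB replicate 1 and CR replicate 2, and from -0.22 (without CR replicate 2) to 0.72 with one replicate left out. The difference in the ratio of miR-182 to miR-183 was -0.13 without both libraries and from -0.44 to 0.77 with one replicate left out, so it has no stable direction. Depth limits all members: the reads of miR-183 in a library ran from 2 to 18, and names that share reads cannot be separated.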
